A study of Mus musculus with 6 samples.

Results

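PRDM proteins are a family of transcriptional regulators that carry a PR domain, a relative of the SET domain of histone methyltransferases, in most members together with zinc fingers that bind DNA. A few members methylate histones themselves, and many recruit histone methyltransferases, deacetylases or corepressors to their targets. In the nervous system they are known for roles in neural progenitors, in cortical wiring and in the development of sensory and hypothalamic neurons. The 9 genes described here are Prdm2, Prdm4, Prdm6, Prdm8, Prdm10, Prdm11, Prdm12, Prdm15 and Prdm16. All probes whose gene name on the array equals 1 of these symbols were taken, which gave 22 of the 56605 probes and 9 of the 37074 gene names. The genes count as selected on their log2 differences between the GSK-J4 and vehicle arrays, since earlier results of the same arrays were known when the list was made, so these differences are given below as a description and not as a test.

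The RNA came from male C57BL/6J mice and is labelled as hypothalamus, which the markers below put in doubt. The mice had obesity from a high-fat diet (DIO mice). The diet started at 6 weeks of age, held 60 kcal% fat and lasted 16 weeks. GSK-J4 is a compound that inhibits the demethylases acting on H3k27me3, a histone mark of repressed genes. In 3 mice it was given by intraperitoneal injection at 30 mg per kg, and 3 mice received the vehicle alone, DMSO in water. Tissue was taken at ZT 6 h, ZT being the time since lights on, and the series places it on day 4 after exposure. The study's methods describe a longer course of injections and do not give the day of the arrays, so the length of treatment behind them is uncertain. All 6 mice shared strain, sex and diet, and each array holds the RNA of 1 mouse. The 3 GSK-J4 arrays lie on 1 slide read in 1 scan and the 3 vehicle arrays on another slide read in another scan, so that slide, scan and group cannot be told apart.

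Signals were dimmer on the GSK-J4 arrays, with 75th percentiles of 588 to 674 against 1110 to 1290 on the vehicle arrays, and 57.7% to 58.7% of probes against 62.8% to 63.6% counted as well above background. Vehicle replicate 1 stands apart in markers of choroid plexus and ependyma, whose summed linear signal over 6 of 6 genes was 103186 on it and 2717 to 11956 on the other arrays. The labelled tissue was checked against its markers. Nkx2-1, a defining transcription factor of the hypothalamus, had neither of its probes well above background on any array. Otp and Sim1, transcription factors of hypothalamic neurons, were not above background either, which makes 5 of 5 probes of these 3 genes at background. Of 12 probes of 9 hypothalamic markers, peptide genes and Nkx2-1 together, 5 stood well above background on all 6 arrays. These 5 belonged to Npy, Pomc, Oxt and Hcrt. Over the whole array 30962 of 56605 probes did so. All 6 probes of 5 telencephalic genes (Neurod6, Tbr1, Emx1, Slc17a7 and Fezf2) cleared background on all 6 arrays. Whether the dissected tissue was hypothalamus is in doubt on these values. It was not tested, since part of these genes were chosen with values known. Among other markers, 9 of 9 neuron, 7 of 8 astrocyte, 8 of 8 oligodendrocyte, 4 of 4 microglia, 3 of 6 POMC neuron and 1 of 7 pituitary probes passed background on all 6 arrays. In limma 3 of the 9 neuron probes passed 0.05 after adjustment as lower, beside 8.42% of all probes kept for comparison. They were Snap25 A_52_P165961 and Syt1 A_55_P2718027 and A_55_P2718032. The log2 differences of the 9 neuron probes lay below 0 for 6 and above 0 for 3. Those above 0 were Syt1 A_55_P2058957 at 0.08, Rbfox3 A_52_P674067 at 0.25 and Rbfox3 A_66_P102976 at 0.04. Probes of the same neuron gene thus did not all move alike. Of these other markers 1 probe, of Pomc, passed as higher, as did Npy of the hypothalamic markers, beside 8.39% of all kept probes. The factors Otp and Sim1 and the telencephalic genes were chosen after values had been seen. In a bulk sample, fewer cells of a type and less RNA per cell cannot be told apart.

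Of the 22 PRDM probes, 12 stood well above background on all 6 arrays, 3 on all arrays of the vehicle group and on some of the GSK-J4 group, 2 on 1 or 2 arrays only and 5 on none. A probe was kept for comparison when each of the 3 arrays in 1 group or the other showed it well above background. This left 15 probes of 8 genes, or 68.2% of the PRDM probes, beside 34444 kept probes or 60.8% over the whole array. Prdm12 was the gene without a kept probe. Each probe is a 60-base oligonucleotide on 1 spot. GC content of the 22 probes ran from 31.7% to 60.0% with a median of 45.0%, beside a median of 41.7% over all probes. The 4 probes below are shown as examples that differ in base composition, in detection or, for Prdm2, in their values for 1 gene. Each has at least 1 reading frame with no stop codon. They are written 5′ to 3′ as the scanner files list them, with G and C in capitals.
Prdm11 A_66_P111780: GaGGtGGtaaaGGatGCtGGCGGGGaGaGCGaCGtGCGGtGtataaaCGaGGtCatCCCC
Prdm2 A_52_P25812: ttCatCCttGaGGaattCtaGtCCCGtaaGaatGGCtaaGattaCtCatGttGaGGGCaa
Prdm2 A_51_P176998: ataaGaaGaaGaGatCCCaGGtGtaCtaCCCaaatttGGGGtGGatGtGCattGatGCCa
Prdm15 A_55_P2173084: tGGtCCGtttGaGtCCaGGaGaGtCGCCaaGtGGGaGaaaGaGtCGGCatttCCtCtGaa

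The probe of Prdm11 holds 36 G or C bases and lies at chr2:92852859-92852918 of mm9, on the minus strand. The Prdm2 probe with 25 such bases lies at chr4:142721880-142721939, also on the minus strand. The other Prdm2 probe, with 27 such bases, is listed from 142760052 to 142769237 on the minus strand of chromosome 4, a span of 9186 bases that only a spliced transcript can bring together in 60. The Prdm15 probe holds 32 such bases and lies at chr16:98059182-98059241 on the minus strand. The files do not say which of these stretches are exonic, coding or untranslated. Runs of 16 bases shared with a probe of another gene name were looked for on both strands, since shared runs can bind RNA of another gene. Such a run was found in 2 of the 22 probes, beside 19.4% of all probes. Prdm2 A_55_P2827106 shares bases 17 to 33 with 1 probe, of Gm6557. Prdm15 A_55_P2722010 shares a run with 55 probes of other genes, and its last 30 bases are shown with its most shared run, found in 20 of them, in capitals.
Prdm15 A_55_P2722010, bases 31 to 60: aacaacaaaacAAAACAAACAAACAAAcaa

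Prdm6, a repressor known from vascular smooth muscle, was the most raised of the kept PRDM probes. Its single probe, A_52_P559076 on chromosome 18, read 6.46, 7.11 and 6.93 on the GSK-J4 arrays and 5.33, 5.19 and 6.22 on the vehicle arrays, in log2 signal. All 3 GSK-J4 values lay above all 3 vehicle values, and the nearest pair, 6.46 and 6.22, was less far apart than the vehicle values were among themselves. The group means were 6.83 ± 0.33 and 5.58 ± 0.56 (SD, n = 3 each), a difference of 1.25, or 2.38-fold on the linear scale. Its standard error was 0.32. All standard errors given here are those of limma, which shares the spread between probes, and do not follow from the printed SDs alone. Leaving out 1 array at a time gave differences from 1.06 to 1.57, and 1.12 without vehicle replicate 1. With normexp background correction, which adds an offset to dim signals, the difference was 0.53, so that its size rests on how background was treated. Markers of vascular smooth muscle were measured beside it. Of 14 probes of 6 such genes 11 were kept, and 0 passed an adjusted p of 0.05 in limma in either direction, beside 16.8% of all kept probes. At an unadjusted p of 0.05, 1 was higher and 0 lower, beside 6705 and 5872 of all 34444 kept probes. The linear signal summed over 5 of the smooth muscle genes, with 1 probe each, was 8812, 12589 and 3412 on GSK-J4 replicates 1, 2 and 3 and 9914 to 12575 on the vehicle arrays. On replicate 3 the probe A_51_P450957 of Acta2, smooth muscle actin, read 8.45 against 12.64 to 13.10 on the other arrays, while its probe A_52_P420504 read 11.15 there and 10.72 to 11.78 on the others. Myocd, a defining factor of that lineage, was at background on all 6 arrays.

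The genes whose probes ran most like that of Prdm6 over the 6 arrays, among 30960 probes well above background on all of them, were Slc22a6, Myl2 and Thbd. Pearson's r was 0.9994 for Slc22a6, an organic anion transporter, 0.9927 for Myl2, a regulatory myosin light chain, and 0.9915 for Thbd, the thrombomodulin gene. Their own differences in log2 signal between the groups were 1.29, 0.82 and 0.49. The points share 6 arrays in groups of 3, and 176 probes reached an r of 0.95, so these values only describe the likeness.

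**Figure D1:**
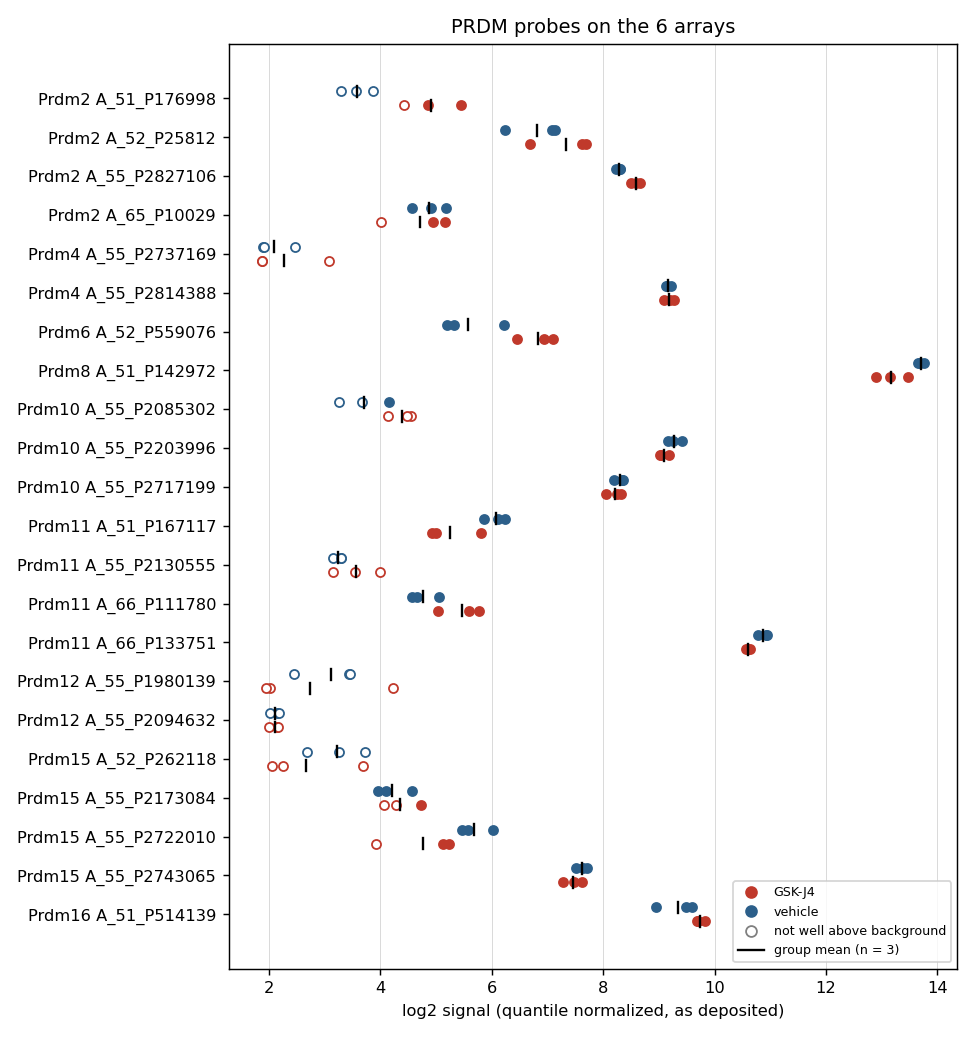
Log2 signal (horizontal axis, quantile normalized as deposited) of all 22 PRDM probes on the 3 GSK-J4 arrays (red) and the 3 vehicle arrays (blue), with open circles for signals not well above background and a black bar at each group mean. The GSK-J4 values of Prdm6 lie at 6.46 to 7.11, above the vehicle values of 5.19 to 6.22, and both Prdm12 probes are open circles on all arrays.

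Prdm12 is known for the development of pain-sensing neurons and for the expression of Pomc in the hypothalamus. Its probe A_55_P1980139, at chr2:31511125-31511184 of mm9 on the plus strand, read 2.02, 4.24 and 1.95 on the GSK-J4 arrays and 3.43, 2.45 and 3.46 on the vehicle arrays. None of these 6 signals was well above background, and the GSK-J4 values span the vehicle values. The probe A_55_P2094632, at chr2:31493961-31494020, read 2.01 to 2.17 on the GSK-J4 arrays and 2.01 to 2.17 on the vehicle arrays, again at background. No fold is given for Prdm12, and no gene was ranked by its likeness to it. Pomc itself rose by 0.85 (SE 0.14, limma adjusted p = 0.0220) on the log2 scale. It read 8.74, 8.60 and 9.05 on the GSK-J4 arrays and 7.79, 8.004 and 8.03 on the vehicle arrays, with no overlap. At the GC content of its probe, 55%, the median difference of all kept probes was 0.24.

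Prdm8, a repressor that works with Bhlhe22 in cortical and retinal neurons, was lower on the GSK-J4 arrays. Its probe A_51_P142972 read 12.90, 13.47 and 13.15 on them and 13.64, 13.76 and 13.69 on the vehicle arrays. The groups did not overlap, and the spread was wider with GSK-J4 (SD 0.29) than with vehicle (SD 0.06). The difference in log2 signal was -0.53 with a standard error of 0.15. With 75th percentile scaling of the arrays instead of quantile normalization it was -0.27. Bhlhe22, its partner, fell by 0.56 on the log2 scale (SE 0.12, limma adjusted p = 0.0350). It read 11.13, 11.47 and 11.42 with GSK-J4 and 11.85, 12.04 and 11.82 with vehicle.

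Prdm16, known from brown fat and from neural stem cells, read 9.83, 9.68 and 9.71 on the GSK-J4 arrays and 9.59, 9.49 and 8.95 on the vehicle arrays with its probe A_51_P514139. The groups did not overlap, but the lowest GSK-J4 value and the highest vehicle value were 9.68 and 9.59. The difference in log2 signal was 0.40 with a standard error of 0.18. It was 0.20 without vehicle replicate 3, which moves it by over 1.5 times, and 0.52 without vehicle replicate 1. After the trend with GC content was removed it was 0.24.

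Prdm2, a zinc finger protein that binds the retinoblastoma protein, has 4 probes on chromosome 4, and they did not move alike. A_55_P2827106 read 8.49, 8.59 and 8.66 on the GSK-J4 arrays and 8.30, 8.23 and 8.30 on the vehicle arrays. Its difference was small, 0.30 with a standard error of 0.08 on the log2 scale with SDs of 0.09 and 0.04, and the groups did not overlap. A_52_P25812 read 7.61, 6.69 and 7.70 against 6.24, 7.07 and 7.14, with overlapping groups and a difference of 0.52 (SE 0.37). That difference was 0.23 without vehicle replicate 1, 0.84 without GSK-J4 replicate 2 and 0.20 with array weights. The difference of A_65_P10029 was -0.18 (SE 0.33), and 0.04 after removal of the GC trend. The spliced probe A_51_P176998 read 4.85, 4.42 and 5.45 with GSK-J4, well above background on 2 of the 3 arrays, and 3.57, 3.30 and 3.87 with vehicle, on 0 of 3. Since 1 GSK-J4 array was at background too, and the lowest detected signal differed between the groups, no fold is given. The probe had not been kept and was not tested.

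Prdm11, known as a tumour suppressor in lymphoma, has 4 probes on chromosome 2, and 2 of them moved in opposite directions. A_51_P167117 read 4.93, 5.80 and 4.997 on the GSK-J4 arrays and 6.23, 5.86 and 6.12 on the vehicle arrays. Its values were lower on every GSK-J4 array than on any vehicle array, with a difference of -0.83 (SE 0.26). A_66_P111780, the GC-rich probe printed above, read 5.601, 5.78 and 5.04 against 4.66, 5.05 and 4.57, so that the lowest GSK-J4 value fell among the vehicle values. Its difference was 0.71 (SE 0.23), and 0.47 after removal of the GC trend. Both probes were near the lowest detected signal of the GSK-J4 arrays, which was 4.39 to 4.64, and normexp background correction brought the differences to -0.44 and 0.26. The probe A_66_P133751 read 10.56 to 10.64 with GSK-J4 and 10.77 to 10.93 with vehicle. This AT-rich probe, of 31.7% GC, differed by -0.28 (SE 0.08), and by 0.05 after removal of the GC trend, so that its sign rests on that step. A_55_P2130555 was not above background on any array. The 4 probes are listed on 4 different transcript records, from 92805327 to 92852918 of mm9.

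Prdm15, known from embryonic stem cells and early neural development, has 4 probes on chromosome 16. A_55_P2722010, the probe with the adenine- and cytosine-rich repeat printed above, read 5.13, 5.24 and 3.93 with GSK-J4 and 5.46, 5.57 and 6.02 with vehicle. The groups did not overlap and its difference, -0.92 (SE 0.38), was the largest fall among the kept PRDM probes, but it was -0.50 without GSK-J4 replicate 3, where the probe was not above background. A_55_P2743065 differed by -0.16 (SE 0.11) with overlapping groups. A_55_P2173084 read 4.73, 4.28 and 4.07 with GSK-J4, well above background on 1 array, and 4.57, 3.96 and 4.10 with vehicle, on 3 arrays. Equal or lower log2 signals thus counted as detected with vehicle, since the lowest detected log2 signal was 3.79 to 3.90 on the vehicle arrays and 4.39 to 4.64 on the GSK-J4 arrays. A_52_P262118 was not above background on any array.

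Prdm4, known as a partner of the neurotrophin receptor and of Prmt5, and Prdm10, a transcriptional activator, showed small differences on their kept probes. Prdm4 A_55_P2814388 read 9.26, 9.20 and 9.09 with GSK-J4 and 9.12, 9.21 and 9.15 with vehicle, which overlap throughout, and differed by 0.02 (SE 0.08). The other Prdm4 probe was at background on all arrays. Prdm10 A_55_P2203996 read 9.03 to 9.19 with GSK-J4 and 9.17 to 9.41 with vehicle, and A_55_P2717199 read 8.05 to 8.33 and 8.20 to 8.35. Their differences of -0.19 (SE 0.09) and -0.09 (SE 0.10) became 0.03 and 0.14 after removal of the GC trend. The remaining Prdm10 probe, A_55_P2085302, was above background on vehicle replicate 2 alone and was not tested. It read 4.55, 4.48 and 4.14 with GSK-J4 and 3.265, 4.16 and 3.68 with vehicle. Its signal was thus not lower with GSK-J4, where the lowest detected signal was higher.

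**Figure D2:**
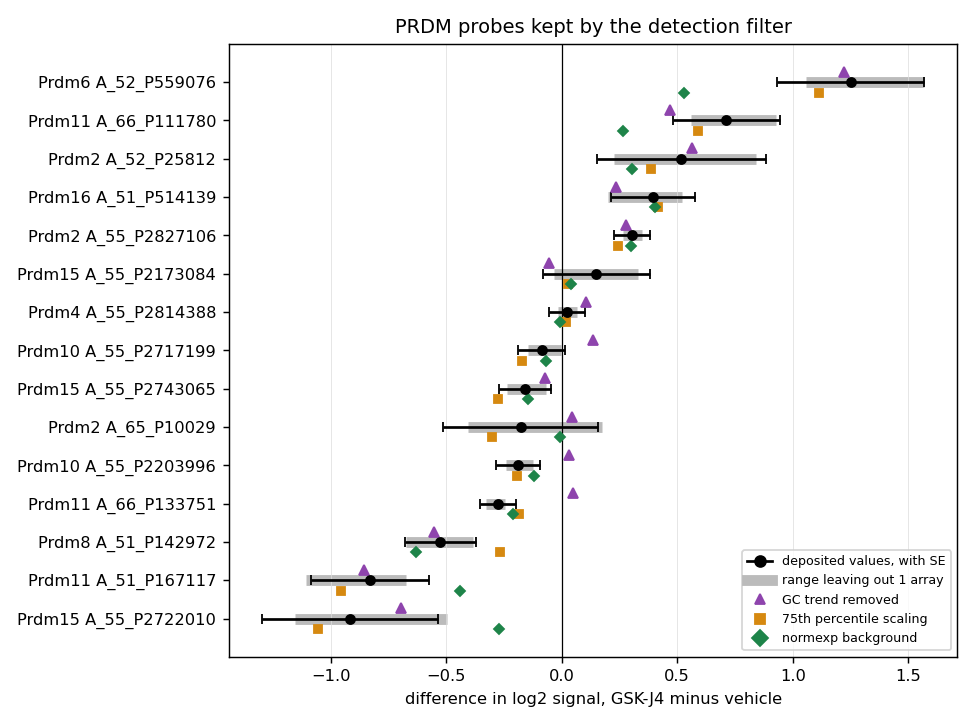
Difference in log2 signal, GSK-J4 minus vehicle (horizontal axis), for the 15 kept PRDM probes, with the limma standard error as a bar, the range on leaving out 1 array in gray, and the differences under GC correction, 75th percentile scaling and normexp. Prdm6 lies at 1.25, or 0.53 with normexp, while Prdm11 has probes at -0.83 and 0.71.

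The kept PRDM probes were counted beside all kept probes, since the array as a whole differed between the groups. At an adjusted p of 0.05 in limma 2 of the 15 PRDM probes were higher, Prdm6 and Prdm2 A_55_P2827106, where 8.39% of all kept probes were. On the lower side the count was 0, where 8.42% of all kept probes were. At an unadjusted p of 0.05, 3 PRDM probes were higher and 3 lower, beside 6705 and 5872 of all 34444 kept probes. The count of 2 became 0 without GSK-J4 replicate 1 or 2 or without any 1 of the 3 vehicle arrays, and 1 without GSK-J4 replicate 3. Over all kept probes the higher count of 2889 became 973, 2076 and 1537 without GSK-J4 replicates 1, 2 and 3. Without vehicle replicates 1, 2 and 3 it became 2, 1 and 1, so the loss of calls was not particular to the PRDM probes. At the thresholds of the methods, 1.5-fold with an unadjusted p of 0.05, Prdm6 and Prdm11 A_66_P111780 were higher, beside 4.79% of all kept probes, and Prdm11 A_51_P167117 was lower, beside 7.86%, or 3 in either direction, beside 12.6%. The groups did not overlap for 7 of the 15 probes, where the background was 45.6%. GSK-J4 lay above in 3 of them and below in 4, beside 24.5% and 21.2%. The median difference in log2 signal over the 15 probes was -0.09, with 7 above 0 and 8 below, and 0.02 over all kept probes. The median size of the difference was 0.30 over the 15 probes and 0.25 over all kept probes. Since these differences led to the choice of the genes, nothing is read from the counts.

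Over all 34444 kept probes the difference ran with the GC content of the probe (Pearson's r 0.33), with a median of -0.15 at 35% GC and 0.24 at 55.0%. Over the 15 PRDM probes r was 0.49, as a description over probes that share the same 6 arrays. The median of all kept probes with the GC content of the Prdm6, Prdm8 and Prdm11 A_51_P167117 probes, 45.0%, was 0.08. At the GC content of Prdm11 A_66_P111780 it was 0.23. After the GC trend was removed, Prdm6 was at 1.22, Prdm8 at -0.55 and Prdm11 A_51_P167117 at -0.85, close to their values before. The part of GC content in the remaining differences was not tested.

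**Figure D3:**
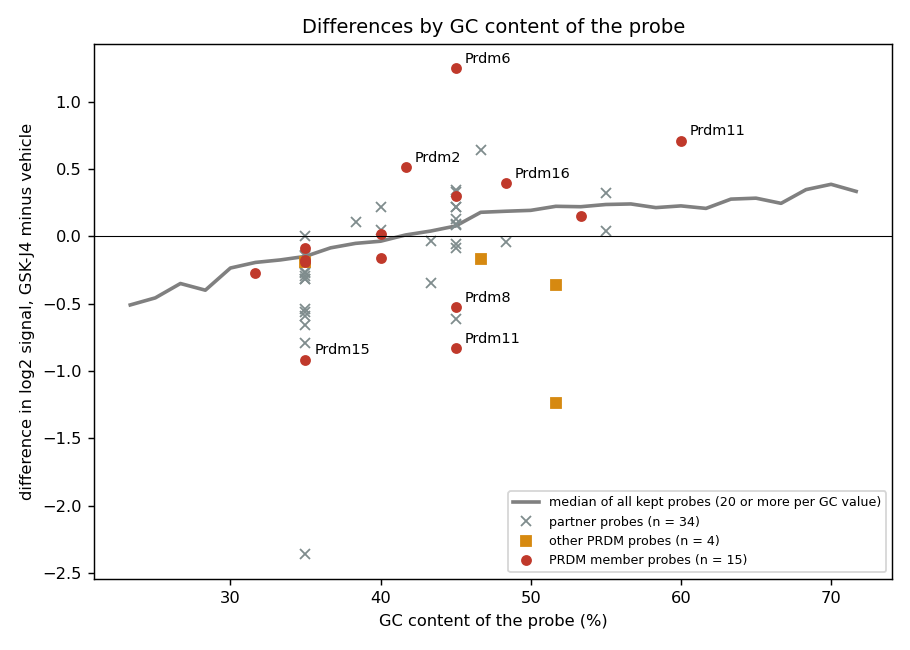
Difference in log2 signal, GSK-J4 minus vehicle (vertical axis), against the GC content of the probe in percent (horizontal axis) for the kept probes of the 9 PRDM genes, of other PRDM genes and of partners, with the median of all kept probes as a line. The line climbs from -0.15 at 35% GC to 0.24 at 55.0%, and Prdm6 at 45.0% GC lies at 1.25, against a median of 0.08 there.

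Other PRDM genes measured on the array were Prdm1, Mecom, Prdm9, Prdm13, Prdm14 and Zfp408. Of their 13 probes 4 were kept, and the differences of all 4 lay below 0, with a median of -0.28. Of these, Prdm1 was above background on 2 of 3 GSK-J4 arrays and Prdm14 on 1, so both were kept through the vehicle group alone. The lowest detected signal was lower in that group, so nothing is read from the shared sign. In limma 0 of 4 passed an adjusted p of 0.05 as higher and 0 as lower, beside 8.39% and 8.42% of all kept probes. At an unadjusted p of 0.05 the counts were 0 and 0, beside 6705 higher and 5872 lower among all 34444 kept probes. Prdm14, a germ cell regulator, was above background on 1 of 3 GSK-J4 arrays and 3 of 3 vehicle arrays and differed by -1.24 (SE 0.55, limma adjusted p = 0.162). All 5 probes of Mecom, a regulator of blood stem cells, and the probe of Prdm13, known from spinal cord interneurons, were not above background on any array.

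The partners were 17 genes for histone methyltransferases, heterochromatin proteins, deacetylases, corepressors and coactivators that bind PRDM proteins. Of their 37 probes 34 were kept. In limma 4 were lower at an adjusted p of 0.05, again beside 8.42%, and 0 were higher, beside 8.39%. At an unadjusted p of 0.05 the counts were 11 lower and 6 higher, beside 5872 lower and 6705 higher among all 34444 kept probes. The median difference in log2 signal over the 34 partner probes was -0.07. Besides Bhlhe22, the lower probes belonged to Cbx1, Ctbp2 and Med1. All 4 have 35% GC, where the median of all kept probes was -0.15, and after removal of the GC trend 1 of the 4, of Cbx1, passed. Cbx1, a heterochromatin protein that binds methylated H3K9, read 10.10, 10.06 and 10.28 with GSK-J4 and 10.75, 10.75 and 10.90 with vehicle on A_52_P255804, and fell by 0.66 (SE 0.09, limma adjusted p = 0.0176). Its other 3 kept probes did not pass the test, with differences of 0.09, -0.61 and -2.36. The last of these had 1 GSK-J4 array at 2.65, not above background, and the other 2 at 6.95 and 7.27.

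Ctbp2, a corepressor that binds Prdm16 among others, read 11.46, 11.46 and 11.42 with GSK-J4 and 11.82, 11.71 and 11.77 with vehicle, and fell by 0.32 (SE 0.07, limma adjusted p = 0.0341). Med1, a subunit of the Mediator coactivator, fell by 0.31 on A_55_P2502526 (limma adjusted p = 0.0457), while its other 3 probes had differences of 0.11 to 0.33 that did not pass. Suv39h1, a methyltransferase of H3K9, was at 0.64 (limma adjusted p = 0.0666) and 0.22 on its 2 probes. With scaling to the 75th percentile, 5 probes of partners and other PRDM genes together passed an adjusted p of 0.05 as higher and 2 as lower. The direction of the counts of this joint set thus rests on the scaling. The count of 4 lower probes among partners and other PRDM genes became 0 without any 1 of the vehicle arrays and 1 without GSK-J4 replicate 1. Over all kept probes the lower count of 2899 became 8, 12 and 4 without vehicle replicates 1, 2 and 3. It was 1429 without GSK-J4 replicate 1, so the loss of calls was not particular to these genes.

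**Figure D4:**
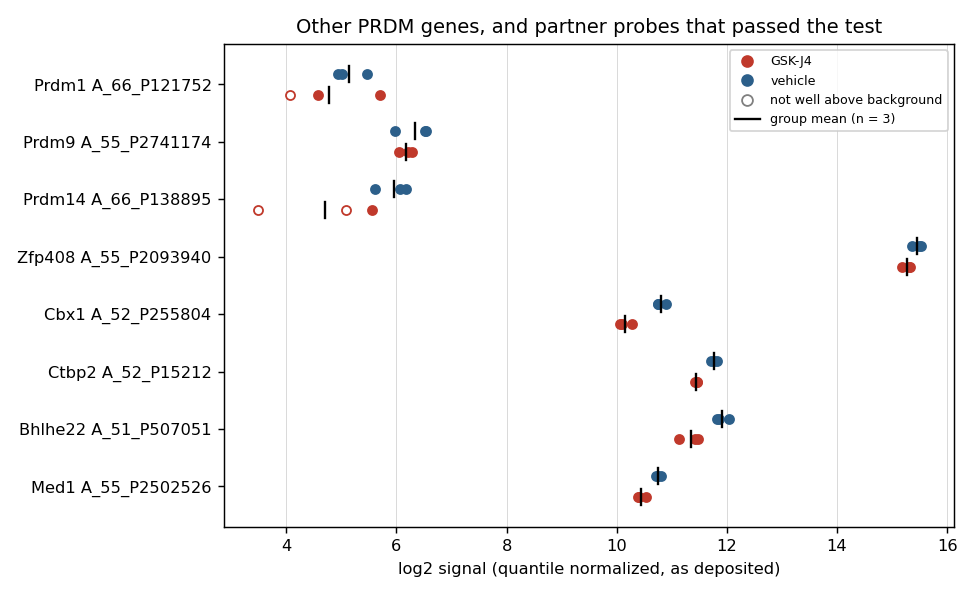
Log2 signal (horizontal axis, quantile normalized as deposited) of the 4 kept probes of other PRDM genes and the 4 partner probes that passed the limma test, on 3 GSK-J4 arrays (red) and 3 vehicle arrays (blue), with group means as black bars and open circles for signals not well above background. For Cbx1 A_52_P255804 the GSK-J4 values of 10.06 to 10.28 lie below the vehicle values of 10.75 to 10.90.

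The promoters of the genes were described from RefSeq windows of 300 bases on GRCm38.p6, from 250 before to 50 after the start. Of the 9 genes 7 matched, with 10 windows. CG dinucleotides, counted as the letters CG, numbered 4 to 40 a window with a median of 23.5, and 9 of the 10 windows were above the median of 7 over all 32851 windows. The count was 17 for Prdm12, 12 for Prdm8, 24 for Prdm16 and 32 for Prdm11. The windows of Prdm4 held 32 and 40, those of Prdm15 held 23 and 34, and those of Prdm10 held 12 and 4. The gene at background on all arrays, Prdm12, thus lay between the detected genes Prdm8 and Prdm16 in this count.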

How the data were processed

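RNA labelled as hypothalamic of 3 GSK-J4 and 3 vehicle DIO mice was hybridized to 6 Agilent 1-colour arrays of 60-base probes, with mm9 coordinates per the file headers. The authors extracted spot intensities with Feature Extraction (10.7.1.1 in the submitters' processing notes) and deposited them with detection flags. A series table of log2 values was deposited too, which the methods call quantile normalized in GeneSpring, and whose sorted columns differ by at most 0.00424. The deposited log2 values were used as the main values and matched by probe name, and the deposited intensities served for detection flags and alternatives. Quantile normalization sets the distributions equal, so a shift of most genes in 1 direction would not show. Folds are differences of mean log2 values.

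Probes that each of the 3 arrays in 1 group or the other showed well above background were compared with limma 3.58.1 (lmFit and eBayes, two-sided, no covariate) in R 4.3.3 with data.table, using Benjamini-Hochberg adjustment over all 34444 kept probes. Standard errors are those of limma after eBayes, which shares the spread between probes. Figures were drawn with matplotlib in Python. An exact permutation test of 3 against 3 cannot go below p = 0.1 and was not used. The number of arrays limits the precision, and p-values measure the spread between 3 mice a group. Tested on simulated data, with 200 of 34444 probes changed by 1 on the log2 scale in 10 simulations of GSK-J4 against vehicle, limma recovered 49.4% at an adjusted p of 0.05 with 4.77% false calls. The simulated noise was independent between probes, with no slide difference and no GC trend, so these rates need not hold for the real arrays.

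The members and all lists were chosen with earlier results of these data known. All member probes are named or counted. Some genes of the other lists are not reported here, and their probes are left out of the counts for those lists. Of other PRDM genes and partners, every gene with a probe past an adjusted p of 0.05 is named and up to 4 without. For Prdm6 and Prdm12, the 3 genes of highest Pearson's r over the 6 arrays were to be named. Marker lists covered hypothalamus (9 genes), vascular smooth muscle, choroid plexus and ependyma, pituitary, POMC neurons, neurons, astrocytes, oligodendrocytes and microglia. Alternatives were scanner signals quantile normalized, scaled to the 75th percentile or after normexp with an offset of 50, other filters, eBayes with trend and robust, array weights, a lowess correction for GC content (span 30%), 1 probe per gene, the methods' t-test, the replicate number as a block, and omitting each array in turn. Experiments other than the arrays were not analysed here.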

Additional observations from a re-analysis of the deposited data

How the results depend on the processing

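No difference of a kept PRDM probe that passed a calling rule changed sign under any alternative. Those probes were picked by these same differences, so their steady sign is a description only. Of the other kept PRDM probes, 6 changed sign under at least 1, namely Prdm2 A_65_P10029, Prdm4 A_55_P2814388, both kept Prdm10 probes, Prdm11 A_66_P133751 and Prdm15 A_55_P2173084. The probes of Prdm8 and Prdm16, Prdm2 A_52_P25812, and Prdm15 A_55_P2722010 and A_55_P2743065 passed no calling rule and kept their sign too. Under each alternative, counts are given as higher and lower probes. For the PRDM probes at an adjusted p of 0.05 (main 2 and 0), the higher count was 0 with 75th percentile scaling, no filter, GC correction, either form of the methods' t-test, the replicate block, and the block with GC correction, and 1 with eBayes with trend and robust or 1 probe per gene. The lower count was 1 with normexp or array weights and 2 with trend and robust. Leaving out 1 array gave 0 to 1 higher and 0 to 2 lower. At the methods' thresholds (main 2 and 1), the higher count was 0 with normexp, 4 with no filter, and 1 with GC correction alone or with the block, 1 probe per gene or either t-test. The lower count was 2 with 75th percentile scaling or trend and robust and 0 with 1 probe per gene or either t-test. Leaving out 1 array gave 1 to 2 higher and 0 to 3 lower. For other PRDM genes and partners at an adjusted p of 0.05 (main 0 and 4), 75th percentile scaling gave 5 and 2, trend and robust 1 higher, and the t-test with equal variances 1 higher. The lower count was 2 with no filter or 1 probe per gene, 1 with GC correction, and 0 with the t-test with unequal variances or the replicate block, alone or with GC correction. Leaving out 1 array gave 0 to 1 higher and 0 to 3 lower. At the methods' thresholds (main 1 and 4), the higher count was 0 with 75th percentile scaling, normexp, array weights, GC correction alone or with the block, 1 probe per gene or the t-test with unequal variances. The lower count was 2 with GC correction or the t-test with equal variances, and 1 with the block and GC correction, the t-test with unequal variances or 1 probe per gene. Leaving out 1 array gave 0 to 1 higher and 2 to 5 lower.

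Over all kept probes (main 2889 and 2899 adjusted), the counts were 5032 higher with 75th percentile scaling, 1793 higher with no filter, 1827 lower with GC correction, 1723 lower with 1 probe per gene, 56 and 37 with the t-test with unequal variances and 1831 and 1484 with equal variances. The higher share of calls was 58.0% with 75th percentile scaling against 49.9%, and 60.2% of the calls of the t-test with unequal variances. Leaving out 1 array gave 1 to 2076 higher and 4 to 2481 lower, and without vehicle replicates 1, 2 and 3 the counts were 2 and 8, 1 and 12, and 1 and 4. At the methods' thresholds (main 1651 and 2706), normexp gave 520 and 1097, 1 probe per gene 1068 and 1414, and the t-test with unequal variances 1799 lower. Apart from leaving out arrays and the alternatives' own construction, the causes were not tested.

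The replicate number is shared by a GSK-J4 and a vehicle array but no label pairs the mice. Deviations of same-numbered arrays correlated at 0.007, 0.028 and 0.084, and 4 of 6 arrays correlated best with their own number. With the number as a block, 0 probes over the whole array passed an adjusted p of 0.05, 0 higher and 0 lower, which leaves fewer residual degrees of freedom.

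Signal over background limits the dim probes. The differences of Prdm6, both dim Prdm11 probes and Prdm15 A_55_P2722010 were 0.53, -0.44, 0.26 and -0.27 with normexp.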
